A study of Mus musculus with 9 samples.

Results

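The genes described are 8 markers by which lymphocytes and granulocytes are commonly recognised: Ptprc, Il7r, Ms4a1, Cd79a, Cd79b, Csf3r, S100a8 and S100a9. They were picked by name from a table of 56691 mouse genes and were chosen by their levels in these same libraries, since earlier results of these data were known. Their values are therefore given as a description. Calls of the markers in the fit over all genes are counted below, and nothing is read from those counts.

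The libraries were made from RNA of primary mouse hepatocytes that were allowed 4 h to attach and then had fresh DMEM for 24 h. Cells of 3 libraries carry the treatment label DMSO (the solvent), those of another 3 the label Bobcat339 (a small molecule sold as an inhibitor of TET enzymes) and those of the last 3 the label 4-octyl itaconate (4OI, an itaconate ester that enters cells). The treatment text common to all 9 samples also names Remodelin hydrobromide, given or withheld, and no label says which libraries had it. The sources used here give no strain, sex, age, genotype, dose or exposure time, nor do they state that libraries of a group came from separate animals or cultures. P-values therefore measure only the spread between these samples, which may be technical.

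Ptprc encodes CD45, a receptor tyrosine phosphatase carried by every nucleated blood cell, macrophages included. Il7r encodes the alpha chain of the interleukin-7 receptor, best known from T cells, early B cells and innate lymphoid cells. Ms4a1 encodes CD20, a membrane protein of B cells, and Cd79a and Cd79b encode the signalling chains of the B cell receptor. Csf3r encodes the receptor for granulocyte colony-stimulating factor (G-CSF), carried by neutrophils and their precursors and by monocytes. S100a8 and S100a9 encode the subunits of calprotectin, a calcium-binding heterodimer that is among the most abundant proteins of neutrophils. Hepatocytes are not known for any of these genes, while a freshly perfused liver also holds Kupffer cells, endothelial cells and blood cells.

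The stretch of 250 bases before the start site is shown for the genes whose levels set the groups furthest apart and for S100a9, which is paired with S100a8 in the protein. The windows come from RefSeq on GRCm38.p6 and are written 5′ to 3′ on the strand of the gene, at chr1:138175306-138175555 (minus strand) for Ptprc, chr4:126024409-126024658 (plus strand) for Csf3r, chr15:9529877-9530126 (minus strand) for Il7r, chr3:90668821-90669070 (plus strand) for S100a8 and chr3:90695722-90695971 (minus strand) for S100a9. Capitals mark matches on either strand to GAGGAA, the core bound by the myeloid and B cell factor PU.1, or to TTGCNNAA, paired half-sites of the C/EBP factors of granulocytes.
Ptprc: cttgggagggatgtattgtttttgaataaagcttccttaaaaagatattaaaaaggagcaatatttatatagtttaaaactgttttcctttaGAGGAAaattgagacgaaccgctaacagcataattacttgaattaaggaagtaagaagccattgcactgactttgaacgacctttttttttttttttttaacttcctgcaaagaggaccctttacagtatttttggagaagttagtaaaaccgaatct
Csf3r: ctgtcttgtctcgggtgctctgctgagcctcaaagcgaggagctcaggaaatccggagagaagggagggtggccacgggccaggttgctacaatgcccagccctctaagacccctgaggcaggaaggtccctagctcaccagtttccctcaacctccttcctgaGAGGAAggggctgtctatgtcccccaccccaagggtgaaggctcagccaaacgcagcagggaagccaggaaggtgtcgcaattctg
Il7r: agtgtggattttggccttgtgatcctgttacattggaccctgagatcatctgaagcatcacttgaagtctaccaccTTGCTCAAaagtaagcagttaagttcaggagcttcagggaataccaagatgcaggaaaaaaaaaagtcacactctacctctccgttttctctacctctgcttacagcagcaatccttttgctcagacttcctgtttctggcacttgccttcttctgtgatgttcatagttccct
S100a8: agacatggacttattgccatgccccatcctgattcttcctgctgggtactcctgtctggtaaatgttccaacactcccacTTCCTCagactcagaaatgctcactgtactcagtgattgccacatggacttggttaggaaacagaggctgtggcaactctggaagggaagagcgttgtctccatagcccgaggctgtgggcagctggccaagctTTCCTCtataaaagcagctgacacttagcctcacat
S100a9: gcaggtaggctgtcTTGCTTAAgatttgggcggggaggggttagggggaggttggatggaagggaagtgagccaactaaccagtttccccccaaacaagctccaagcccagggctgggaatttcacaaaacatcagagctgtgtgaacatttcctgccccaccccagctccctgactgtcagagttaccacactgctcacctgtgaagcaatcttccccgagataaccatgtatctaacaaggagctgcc

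GAGGAA began at position -158 of Ptprc and -86 of Csf3r, counted from the start site, and on the opposite strand (TTCCTC as printed) at -170 and -36 of S100a8. TTGCNNAA began at -174 of Il7r and at -236 of S100a9. A second RefSeq start of Ptprc had neither motif, and the window of Cd79a had GAGGAA on the opposite strand at -140. Of 32851 windows of this length, 23.3% held GAGGAA and 9.56% held TTGCNNAA. The palindromic site of the early B cell factor EBF1, held by 0.779% of windows, was in none of these. The 2 motifs in capitals share no bases in these windows, and a match describes letters only. Ms4a1 and Cd79b are named only.

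The deposited values were estimated counts, and library totals ran from 67434312 to 83902788 counts. About 4 counts were taken as 1 read pair, an inference from an excess of multiples of 4 among low values. Levels are in CPM, which scales counts to library size (here with TMM factors), and each ± is the SD of the 3 libraries of a group. Raw counts stand beside them, because on that reading 12 counts in a library are only about 3 read pairs. Each log2 fold change and its standard error (SE) were taken from an edgeR quasi-likelihood fit over 18379 genes, and a gene was called at a Benjamini-Hochberg adjusted p under 0.05 (edgeR). All 8 markers passed the filter on low counts, but Il7r, Ms4a1 and Cd79b passed it through the 4OI libraries alone.

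Hepatocyte genes put the label in context. Albumin (Alb) was at 24633 ± 116 CPM with DMSO and 22509 ± 1735 with Bobcat339 but at 1396 ± 72.0 with 4OI, and all 9 hepatocyte genes found of a list of 10 fell with 4OI against DMSO. Summed over 16 macrophage and Kupffer cell genes, the level was 749 to 809 CPM with DMSO, 345 to 382 with Bobcat339 and 7265 to 7429 with 4OI. Over 12 endothelial genes it was 155 to 174, 136 to 159 and 4312 to 4547 CPM. Bobcat339 replicate 1 stood apart in 10 genes of intestinal epithelium, with a sum of 157 CPM against 22.1 and 24.5 in the other Bobcat339 libraries, 167 to 198 with DMSO and 4.41 to 19.1 with 4OI. Fold changes of S100a9, Ly6g and Muc2 and the numbers of neutrophil and intestinal genes called are given with and without it. Fitted values of the other neutrophil genes are given with it only.

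Over all tested genes, Bobcat339 against DMSO gave 11.6% of genes called higher and 9.06% called lower, while of the 8 markers 0 were called higher and 2 lower (Ptprc and Csf3r). 4OI against DMSO gave 33.3% higher and 30.4% lower, and of the markers 4 higher (Ptprc, Il7r, Csf3r and S100a8) and 0 lower. 4OI against Bobcat339 gave 30.9% higher and 31.3% lower, and of the markers 5 higher (the same 4 and Ms4a1, which had no counts in 1 of the 4OI libraries) and 0 lower. At an unadjusted p under 0.05 the markers outside these calls were higher in 1 case, Il7r with Bobcat339, and lower in 1, S100a8 with Bobcat339. These counts describe genes picked on the same values, and nothing is read from them. The median log2 fold change over all genes was -0.01, 0.08 and -0.00 in the 3 comparisons in that order. The comparisons share libraries in pairs. Each count of called list genes below is to be set beside these shares over all genes. Whether a list differed from them was not tested. For Bobcat339 against DMSO the count of called genes moved with the libraries, from 2136 higher and 1666 lower to 1380 and 1046 without DMSO replicate 1, and to 1421 and 1064 without Bobcat339 replicate 2. It was 1102 lower without DMSO replicate 2, and RLE scaling turned the split to 1708 higher and 2000 lower.

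**Figure D1:**
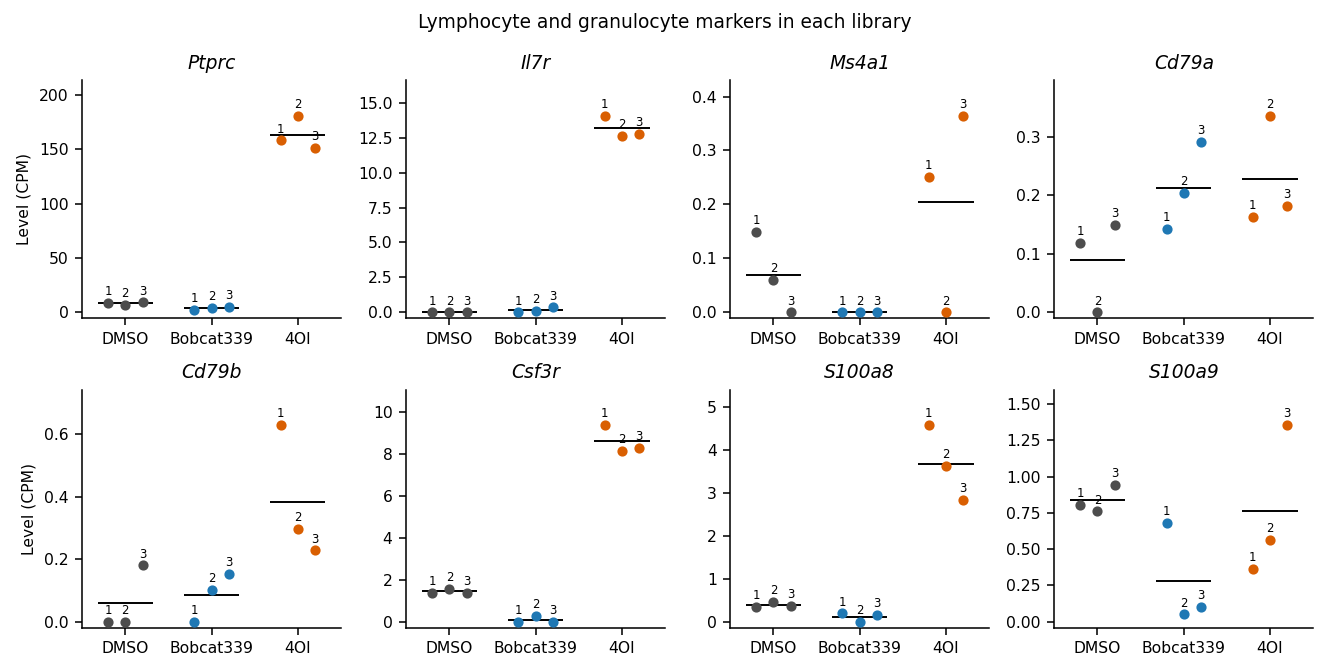
Level of each marker (CPM, linear axis from 0, a scale of its own in each panel) in the 9 libraries, numbered by replicate, with a line at the mean of each group. Ptprc, Il7r, Cd79b, Csf3r and S100a8 are highest in the 3 4OI libraries without overlap, Cd79b with at most 50 counts in a library. Ms4a1, Cd79a and Cd79b stay under 1 CPM everywhere, and the groups of S100a9 overlap. The markers were picked on these same values, and the share of all genes without overlap was not counted.

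Ptprc was by far the best covered of the markers. Its counts were 572, 461 and 608 in the DMSO libraries, 165, 298 and 378 in the Bobcat339 libraries, and 12577, 13464 and 13300 in the 4OI libraries. No group overlapped another: every Bobcat339 library was below every DMSO library, and every 4OI library was far above both. The share of all genes without overlap was not counted, so nothing is read from a lack of overlap, here or for any marker below. The mean level was 8.16 ± 1.16 CPM with DMSO, 3.57 ± 1.34 with Bobcat339 and 163 ± 15.4 with 4OI. That is 2.29-fold lower with Bobcat339 than with DMSO (log2 fold change -1.19, SE 0.23) and 20.0-fold higher with 4OI than with DMSO (4.32, SE 0.25). Between the treatments the distance was 45.8-fold (5.52, SE 0.26). In such bulk RNA, fewer cells of a type and less RNA per cell cannot be told apart, here or for any gene below.

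The genes whose pattern over the 9 libraries was most like that of Ptprc were found by the root mean square difference of centred log2(CPM + 0.5) values. They were Clec1b (0.096), Mpeg1 (0.105), Dab2 (0.133), Lmo2 (0.156) and Cybb (0.180). The offset of 0.5 CPM damps changes of genes with levels under it, as Il7r, Csf3r, S100a8 and S100a9 had in some groups. Mpeg1 encodes a pore-forming protein of macrophages and Cybb the catalytic subunit of the phagocyte NADPH oxidase. Mpeg1 was at 63.9 CPM with DMSO, 30.9 with Bobcat339 and 1237 with 4OI. Set against Adgre1, which encodes the macrophage antigen F4/80, Ptprc had 12.2 to 15.3 counts per 100 in the DMSO libraries, 25.6 to 40.3 in the Bobcat339 libraries and 25.5 to 30.2 in the 4OI libraries. The ratio thus did not overlap between DMSO and either treatment, and it did overlap between the treatments. Against Itgb2, the beta-2 integrin of leukocytes, it was 39.0 to 64.3, 34.0 to 58.6 and 31.8 to 39.0 per 100. Bobcat339 overlapped both other groups there, and the highest 4OI library (38.994) lay just below the lowest DMSO library (39.002).

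Genes shared by most leukocytes moved the same way as Ptprc. Of 27 on a list without Ptprc, 23 fell and 0 rose with Bobcat339 against DMSO (median -1.70), 26 rose and 0 fell with 4OI against DMSO (median 3.82), and all 27 rose with 4OI against Bobcat339 (median 5.62). Where 0 were called, DESeq2 called 0 too, and 1 gene (Cytip) was higher with Bobcat339 at an unadjusted p under 0.05. Rac2, a GTPase of blood cells, had 1038, 903 and 805 counts with DMSO, 297, 325 and 298 with Bobcat339, and 10748, 10199 and 12225 with 4OI. Its log2 fold change was -1.80 (SE 0.10, edgeR adjusted p = 3.06e-06) with Bobcat339 against DMSO. Was, the actin regulator lost in Wiskott-Aldrich syndrome, went from 2.37 ± 0.197 to 0.672 ± 0.0445 CPM with Bobcat339 and to 45.5 ± 0.667 CPM with 4OI. Il2rg, the common gamma chain that pairs with the Il7r product, was at 4.51 ± 0.552, 2.59 ± 0.129 and 87.2 ± 0.982 CPM in DMSO, Bobcat339 and 4OI libraries. Hcls1, an actin-binding substrate of Src kinases, rose with 4OI (12.9 ± 2.03 to 342 ± 10.9 CPM) and was at 10.3 ± 0.546 CPM with Bobcat339 (adjusted p = 0.0621).

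CD45 acts by removing phosphate from Src family kinases, and 9 of 10 listed substrates and partners could be tested. With 4OI all 9 rose against DMSO (median 2.09), among them the kinase Fyn (7.03 ± 1.13 to 157 ± 5.49 CPM). With Bobcat339, 4 fell and 1 rose. The one that rose was Fyn, to 13.1 ± 1.48 CPM (log2 fold change 0.90, SE 0.12, adjusted p = 0.000603). The macrophage list moved with Ptprc in all of these: 15 of 16 of its genes fell with Bobcat339 and 16 of 16 rose with 4OI. Adgre1 was at 58.3 ± 1.59, 11.0 ± 2.41 and 595 ± 3.84 CPM, and the Kupffer cell lectin Clec4f at 3.52 ± 0.298, 0.924 ± 0.388 and 47.5 ± 0.784 CPM. Their part in the Ptprc level was not tested.

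**Figure D2:**
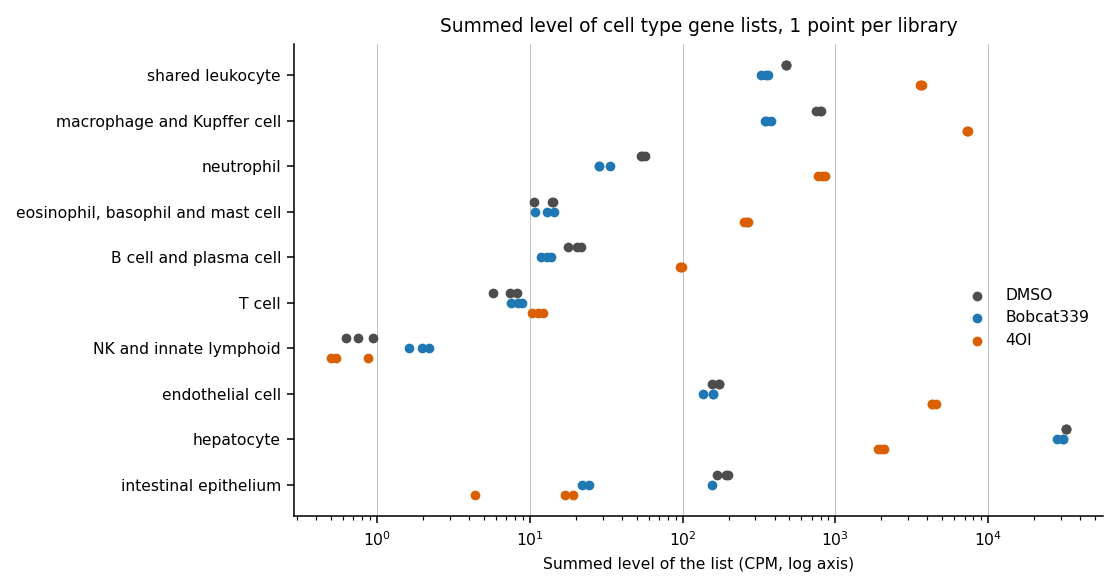
Summed level (CPM, log axis) of 10 cell type gene lists, 1 point per library, coloured by group. The macrophage list reaches 7265 to 7429 CPM with 4OI, while the T cell list stays between 5.78 and 12.3 CPM and the list of NK and innate lymphoid genes between 0.503 and 2.20 CPM in all libraries.

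Il7r was absent from the DMSO libraries, with 0 counts in each. It had 0, 8 and 28 counts in the Bobcat339 libraries and 1120, 940 and 1122 in the 4OI libraries. In read pairs this is about 0, 9 and 796 summed over each group. Against a floor of 12 counts per library, 4OI was at least 73.5-fold higher than DMSO (13.2 ± 0.799 CPM). Against Bobcat339 (0.152 ± 0.182 CPM) the fitted log2 fold change was 6.42 (SE 0.76), and it was 5.84 without Bobcat339 replicate 1 and 7.91 without Bobcat339 replicate 3, whose 28 counts make up most of that group.

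Among the genes nearest to Il7r in pattern were Mertk (0.144), Adgrf5 (0.152), Zeb2 (0.169) and Lrrk2 (0.179). Mertk, a receptor of phagocytes for dying cells, was at 7.41, 9.18 and 234 CPM in DMSO, Bobcat339 and 4OI libraries, so that DMSO and Bobcat339 lay close together. For Il7r they did so on this scale, where both levels (0 and 0.152 CPM) lay under the offset of 0.5 CPM. Adgrf5, an adhesion receptor known from endothelium, was at 12.9, 17.5 and 379 CPM.

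Genes of the interleukin-7 pathway did not move one way. Of 10 listed, 6 rose and 4 fell with 4OI against DMSO, and 2 rose and 1 fell with Bobcat339. Over all tested genes 33.3% rose and 30.4% fell with 4OI, and 11.6% rose and 9.06% fell with Bobcat339. A difference from these shares was not tested, and Tslp passed the filter on low counts through the 4OI libraries alone. Il7, the ligand itself, was at 1.82 ± 0.300 CPM with DMSO, 2.54 ± 0.402 with Bobcat339 and 0.424 ± 0.181 with 4OI, a fall with 4OI (log2 fold change -2.09, SE 0.36, adjusted p = 0.000386). Crlf2, which pairs with the Il7r product to bind the cytokine TSLP, rose with 4OI from 5.35 ± 0.542 to 23.5 ± 1.89 CPM. Bcl2, a survival gene downstream of the receptor in T cells, rose from 0.671 ± 0.427 to 10.2 ± 1.12 CPM. Cish, a feedback inhibitor induced by STAT5, went in opposite directions, from 10.4 ± 0.821 CPM with DMSO to 30.6 ± 2.13 with Bobcat339 (1.56, SE 0.12, adjusted p = 1.17e-05) and 3.63 ± 0.286 with 4OI (-1.51, SE 0.12, adjusted p = 8.5e-07). Jak1 (0.35, SE 0.10, adjusted p = 0.0328) and Stat5b (-0.34, SE 0.09, adjusted p = 0.0207) were called with Bobcat339 too, but both calls were lost without DMSO replicate 1 (adjusted p = 0.137 and 0.102), among other libraries.

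The defining genes of T cells were at or near 0 in every group. Cd3e, a chain of the T cell receptor complex, had 0 counts in 7 libraries, 4 in Bobcat339 replicate 3 and 12 in 4OI replicate 3. Trac, Trbc1, Cd8b1, Cd6, Ctla4 and Skap1 had 0 counts in all 9 libraries. Of 28 listed T cell genes only 11 could be tested, 7 of them through the 4OI libraries alone, and the summed level was 5.78 to 8.29 CPM with DMSO, 7.56 to 8.84 with Bobcat339 and 10.3 to 12.3 with 4OI. Among the tested genes 4 rose and 1 fell with 4OI against DMSO. Ccr7, a chemokine receptor also carried by dendritic cells, had 0, 0 and 4 counts with DMSO, 18, 19 and 12 with Bobcat339, and 310, 275 and 356 with 4OI. Counts of the costimulator Icos were 4, 4 and 0 counts, then 0, 3 and 0, then 89, 137 and 64. Cd4, the coreceptor of helper T cells, had 21, 0 and 8 counts with DMSO, 0 in every Bobcat339 library, and 67, 80 and 72 with 4OI. Its call as lower with Bobcat339 (adjusted p = 0.0353) was lost in 11 of 15 alternatives. Tcf7, a transcription factor of T cells and of Wnt signalling, ran the other way, at 5.45 ± 1.09 CPM with DMSO, 7.20 ± 0.762 with Bobcat339 and 1.60 ± 0.0804 with 4OI (log2 fold change -1.77 against DMSO, SE 0.20, adjusted p = 1.49e-05). It held 75.8% of the summed T cell level with DMSO and 14.1% with 4OI.

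NK and innate lymphoid genes were lower still. The activating receptor Ncr1 had 0 counts in all 9 libraries, and 5 of 15 listed genes had no counts at all. Only 4 could be tested, of which 2 fell and 0 rose with 4OI against DMSO (0 also by DESeq2 and at an unadjusted p under 0.05). Eomes, a transcription factor of NK cells, had 22, 28 and 12 counts with DMSO, 113, 78 and 102 with Bobcat339, and 4, 8 and 0 with 4OI. Every Bobcat339 library was above every DMSO library, with an adjusted p of 0.0875 for a log2 fold change of 2.01 (SE 0.75). That comparison was called in 4 of 16 alternatives, with DESeq2 (adjusted p = 0.0247), with only the 6 libraries compared (0.0082), with values divided by 4 (0.0077) and without 4OI replicate 3 (0.0161). For Eomes with 4OI against DMSO the call (adjusted p = 0.0209) was lost with only the 6 libraries compared (adjusted p = 0.0527) and without DMSO replicate 2 (adjusted p = 0.0626). Txk, a kinase of T and NK cells, had 19, 22 and 0 counts with DMSO, 6, 14 and 8 with Bobcat339, and 0 in every 4OI library. Il2rb, a receptor chain for interleukins 2 and 15, had 24, 32 and 20 counts with 4OI and 0 in every Bobcat339 library.

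The B cell members were barely detected anywhere. Ms4a1 had 10, 4 and 0 counts with DMSO, 0 in all 3 Bobcat339 libraries, and 20, 0 and 32 with 4OI. Cd79a had 8, 0 and 10 counts with DMSO, 11, 16 and 23 with Bobcat339, and 13, 25 and 16 with 4OI. Cd79b had 0, 0 and 12 counts with DMSO, 0, 8 and 12 with Bobcat339, and 50, 22 and 20 with 4OI. Over all 9 libraries that is about 16.5 read pairs of Ms4a1, 30.5 of Cd79a and 31.0 of Cd79b, against 10456 of Ptprc. The 4OI libraries of Ms4a1 overlapped those of both other groups. For Cd79b they lay above both, by 20 counts against a highest of 12, and for Cd79a they overlapped Bobcat339 but not DMSO. No fold is given, since at least 1 group of each lay at or under the floor of 12 counts per library.

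Of 23 listed B cell and plasma cell genes 2 had no counts and 11 could be tested, of which 8 rose and 1 fell with 4OI against DMSO, and 0 rose and 3 fell with Bobcat339. No gene of the list rose with Bobcat339 at an unadjusted p under 0.05 or by DESeq2 either. The genes that rose with 4OI were mostly inhibitory receptors, kinases and adaptors, together with the immunoglobulin genes Ighm and Igkc. Cd72, a lectin-like coreceptor of B cells, was at 5.55 ± 0.252 CPM with DMSO, 0.759 ± 0.255 with Bobcat339 and 44.7 ± 1.96 with 4OI, with log2 fold changes of -2.87 (SE 0.20, adjusted p = 7.6e-06) and 3.01 (SE 0.18, adjusted p = 8.56e-08) against DMSO. Cd22, a sialic acid receptor that dampens the B cell receptor and is also a CD45 ligand, had 90, 67 and 42 counts with DMSO, 15, 10 and 16 with Bobcat339, and 1824, 1838 and 2341 with 4OI. Cd72 and Cd22 held 46.0% and 25.4% of the summed list in the 4OI libraries. Pax5, the factor that commits cells to the B lineage, moved against them, with 104, 137 and 139 counts with DMSO, 209, 197 and 297 with Bobcat339, and 2, 25 and 15 with 4OI (log2 fold change -3.41 against DMSO, SE 0.60, adjusted p = 0.000506).

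Downstream of the B cell receptor, 7 of 10 listed genes rose and 1 fell with 4OI against DMSO (median 2.46), and 5 fell and 0 rose with Bobcat339 (median -0.51). By DESeq2 8 fell and 0 rose there, and 0 rose at an unadjusted p under 0.05. Syk, the kinase that docks on the Cd79a and Cd79b chains and on the receptors of myeloid cells, was at 17.7 ± 1.57 CPM with DMSO, 8.67 ± 0.472 with Bobcat339 and 380 ± 18.4 with 4OI. Plcg2, the phospholipase it activates, was at 6.55 ± 1.26, 2.84 ± 0.289 and 100 ± 8.22 CPM. Vav2, an exchange factor found in many tissues, fell with 4OI from 77.0 ± 9.52 to 38.8 ± 0.391 CPM. In the same 4OI libraries the receptor chains were at 0.227 ± 0.0945 CPM (Cd79a) and 0.384 ± 0.215 CPM (Cd79b), values not scaled for gene length.

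**Figure D3:**
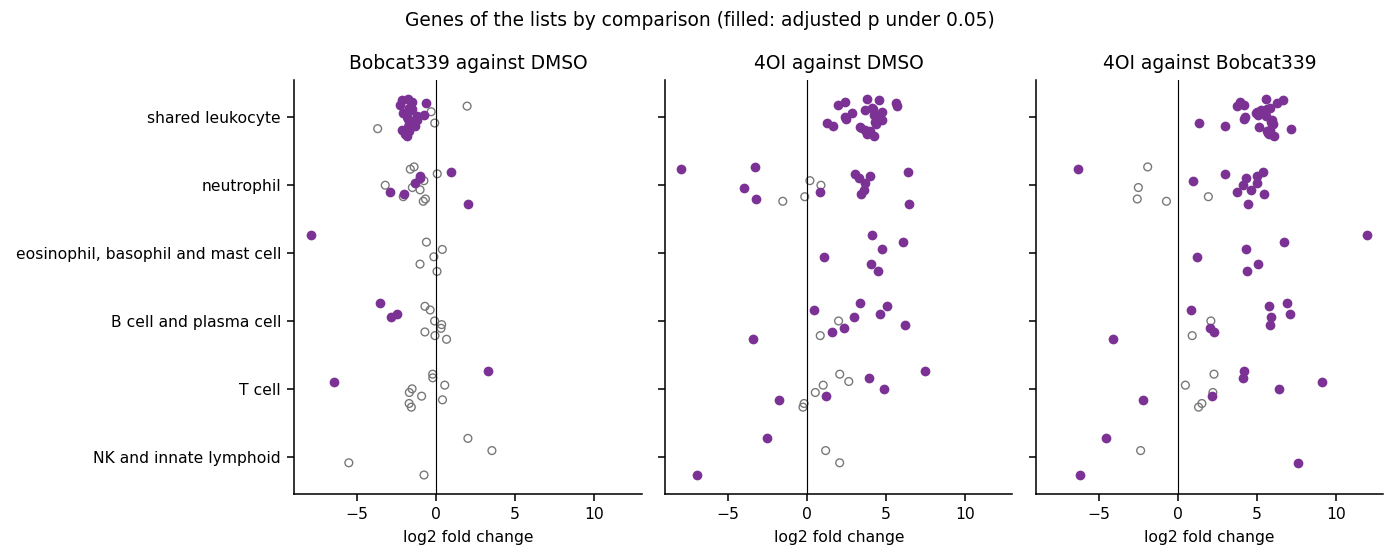
Log2 fold change (x axis) of each tested gene of 6 lists of lymphocyte, granulocyte and shared leukocyte genes in the 3 comparisons, the markers themselves left out; filled points were called at an edgeR adjusted p under 0.05 and open points were not. Points beyond about 6 on either side include genes with no counts in 1 group, whose fitted value depends on the prior count. With 4OI the shared leukocyte genes and the 6 tested eosinophil, basophil and mast cell genes lie on the right. The T cell, NK, B cell and neutrophil lists have genes on both sides.

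Csf3r had 93, 105 and 92 counts in the DMSO libraries, 0, 22 and 0 in the Bobcat339 libraries, and 745, 606 and 728 in the 4OI libraries. No groups overlapped, and its Bobcat339 counts all came from replicate 2. The mean was 1.44 ± 0.107 CPM with DMSO, 0.0934 ± 0.162 with Bobcat339 and 8.60 ± 0.668 with 4OI. Fitted log2 fold changes were -3.92 (SE 0.84) with Bobcat339 against DMSO, 2.57 (SE 0.68) with 4OI against DMSO and 6.50 (SE 0.88) between the treatments. Without Bobcat339 replicate 1 or 3 the first was -3.35 and -3.34, and without Bobcat339 replicate 2 that group has no counts and a fitted value of -9.76 that depends on the prior count. Between the treatments the same omissions gave 5.92, 5.87 and 12.33. Per 100 counts of Adgre1, Csf3r had 2.32 to 2.77 with DMSO and 1.36 to 1.58 with 4OI, so that Csf3r was less far above DMSO than this macrophage gene was.

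Nearest to Csf3r in pattern were Pou2f2 (0.141), Themis2 (0.159), Rab3il1 (0.205), Pld4 (0.231) and Sh3bp1 (0.238). Pou2f2, a transcription factor of B cells and macrophages, was at 2.87, 0.535 and 12.7 CPM in DMSO, Bobcat339 and 4OI libraries, and Themis2, a signalling adaptor of B cells and macrophages, was at 4.16, 0.616 and 19.7 CPM. These genes, like Csf3r, were further below DMSO with Bobcat339 than Ptprc was.

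In the G-CSF pathway, 8 of 10 listed genes rose and 2 fell with 4OI against DMSO, and 3 rose and 2 fell with Bobcat339. The shares over all tested genes were 33.3% higher and 30.4% lower with 4OI, and 11.6% and 9.06% with Bobcat339. The Src kinase Fgr had 358, 353 and 301 counts with DMSO, 48, 30 and 13 with Bobcat339, and 783, 919 and 815 with 4OI, the order of Csf3r itself. Stat3, the main signal carrier of the receptor and of interleukin-6 in hepatocytes, rose with Bobcat339 from 201 ± 13.0 to 355 ± 2.83 CPM (log2 fold change 0.82, SE 0.07, adjusted p = 2.91e-05). With 4OI it was 174 ± 5.66 CPM (-0.21, SE 0.07, adjusted p = 0.0231), a call lost in 5 of 17 alternatives, with library size as the only scaling among them (adjusted p = 0.152). Cebpb, which drives emergency production of granulocytes and is also a liver factor, rose with both, to 138 ± 14.2 and 171 ± 6.37 CPM from 78.6 ± 13.4. Cebpe, the factor of late granulocyte maturation, had 42, 16 and 25 counts with DMSO, 7, 17 and 7 with Bobcat339 and 0 in every 4OI library, which is at least 2.76-fold lower with 4OI than with DMSO.

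Neutrophil genes were called in both directions. Mpo and Elane, the granule enzymes made by neutrophil precursors, had 0 counts in all 9 libraries, as did Ctsg, Cxcr1 and Stfa2l1. Of 26 listed neutrophil genes 17 could be tested, of which 9 rose and 4 fell with 4OI against DMSO, and 2 rose and 5 fell with Bobcat339. The 4 that fell (Ly6g, Padi4, Cebpe and Cd177) were reduced to 1 or 2 when a single DMSO or 4OI library was left out. Apart from the matrix proteases Mmp8 and Mmp9, the genes that rose encode surface receptors and an oxidase subunit that monocytes and macrophages share. Clec4d, a lectin receptor for fungal and mycobacterial glycolipids, had 312, 304 and 256 counts with DMSO, 614, 661 and 680 with Bobcat339, and 30906, 27315 and 27924 with 4OI. Clec4d, Fpr1 (the formyl peptide receptor) and Itgam (CD11b) together held 78.1% of the summed list with 4OI. Itgam was at 9.53 ± 0.204, 3.76 ± 0.258 and 122 ± 8.07 CPM in DMSO, Bobcat339 and 4OI libraries. Trem1, an amplifying receptor of neutrophils and monocytes, and Clec4d were the 2 that rose with Bobcat339, Trem1 from 0.189 ± 0.0166 to 0.764 ± 0.215 CPM (log2 fold change 2.01, SE 0.25, adjusted p = 0.000326).

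Several eosinophil, basophil and mast cell genes were not detected. Prg2, Epx, Ear6, Alox15, Prss34, Ms4a2 and Fcer1a, which include granule proteins of eosinophils and the alpha and beta chains of the IgE receptor (Fcer1a and Ms4a2), had 0 counts in all 9 libraries. Of 20 listed genes 6 could be tested, and all 6 rose with 4OI against DMSO while 1 fell with Bobcat339. Kit, the stem cell factor receptor, held 89.4% of the summed list with 4OI and was at 10.5 ± 2.09, 11.0 ± 2.42 and 234 ± 7.72 CPM. Ccr3, the eotaxin receptor of eosinophils, had 28, 28 and 24 counts with DMSO, 0 in every Bobcat339 library and 474, 549 and 625 with 4OI, which is at least 2.60-fold higher with DMSO and at least 44.5-fold higher with 4OI than with Bobcat339.

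S100a8 had 23, 31 and 24 counts in the DMSO libraries, 15, 0 and 12 in the Bobcat339 libraries, and 364, 270 and 249 in the 4OI libraries, again without overlap. The mean was 0.388 ± 0.0650 CPM with DMSO, 0.115 ± 0.102 with Bobcat339 and 3.68 ± 0.871 with 4OI. Its log2 fold change was 3.24 (SE 0.67) with 4OI against DMSO, a 9.49-fold distance, and 4.98 (SE 0.75) with 4OI against Bobcat339. With Bobcat339 against DMSO it was -1.74 (SE 0.71), from a total of about 6.75 read pairs in the Bobcat339 group, and it ran from -1.16 without Bobcat339 replicate 2 to -2.33 without Bobcat339 replicate 1.

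S100a9 did not share that pattern, though the proteins work as a pair. Its counts were 54, 51 and 63 with DMSO, 53, 4 and 8 with Bobcat339, and 29, 42 and 119 with 4OI. Libraries of 4OI lay on both sides of the DMSO libraries, and Bobcat339 replicate 1 lay near the DMSO libraries (0.683 CPM against 0.761 or more) while the other Bobcat339 libraries were far below. The mean was 0.836 ± 0.0960 CPM with DMSO, 0.278 ± 0.352 with Bobcat339 and 0.761 ± 0.524 with 4OI. Its log2 fold change with Bobcat339 against DMSO was -1.58 (SE 0.85) and -3.43 without Bobcat339 replicate 1. With 4OI against DMSO it was -0.13 (SE 0.82) and -0.85 without 4OI replicate 3, and between the treatments 1.45 (SE 0.85) and 3.29 without Bobcat339 replicate 1. For every 100 counts of S100a9 there were 38.1 to 60.8 of S100a8 in the DMSO libraries, 28.3, 0 and 150 in the Bobcat339 libraries, and 1255, 643 and 209 in the 4OI libraries, a ratio that did not overlap between DMSO and 4OI.

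The neutrophil surface genes Ly6g and Cd177 varied between libraries as S100a9 did in the DMSO and Bobcat339 groups. Ly6g had 224, 167 and 239 counts with DMSO, 240, 4 and 13 with Bobcat339, and 10, 35 and 0 with 4OI. Cd177 (named after its values were seen) had 193, 178 and 147, then 206, 10 and 12, then 34, 27 and 0. The mucin gene Muc2, which marks goblet cells of the intestine, had 4677, 4125 and 4839 counts, then 4487, 526 and 327, then 369, 400 and 0. In all of these Bobcat339 replicate 1 was at or near the level of DMSO. For Bobcat339 against DMSO, the log2 value of Ly6g was -1.51 (adjusted p = 0.466) with that library and -4.84 (adjusted p = 0.0162) without it, and that of Muc2 -1.57 (adjusted p = 0.356) and -3.65 (adjusted p = 0.0269). Without it, 9 neutrophil genes and 7 of 10 intestinal genes were called lower with Bobcat339, against 5 and 0 with it (0 intestinal genes by DESeq2 too, and 1 at an unadjusted p under 0.05). With 4OI against DMSO all 10 intestinal genes fell (6 by DESeq2). Ly6g did too (-3.99, SE 1.41, adjusted p = 0.0294), a call lost in 5 of 16 alternatives (highest adjusted p = 0.0853), for example without 4OI replicate 1. S100a9 with 4OI did not lie as low as these genes. What part intestinal material had in these counts was not tested.

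**Figure D4:**
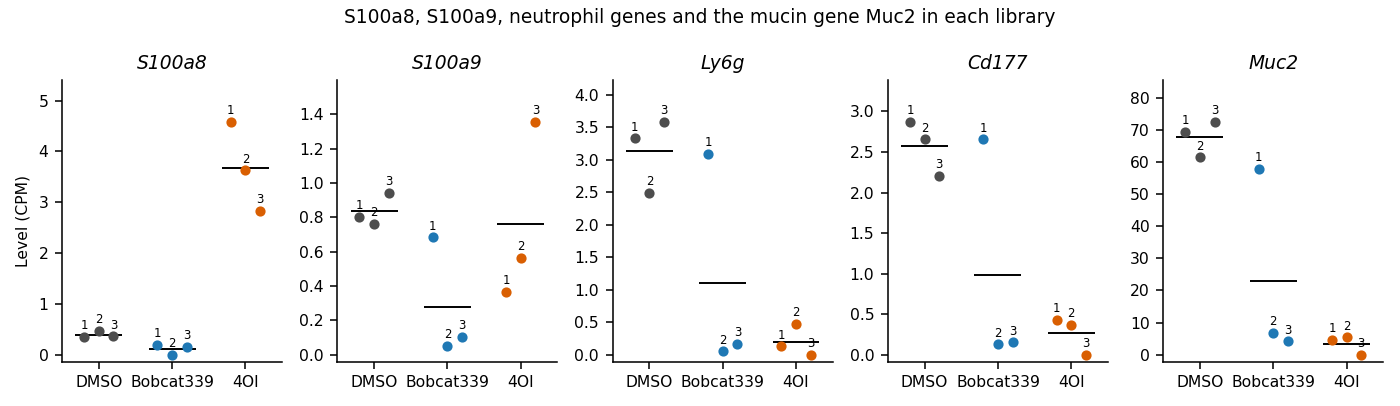
Level (CPM, linear axis from 0, a scale of its own in each panel) of S100a8, S100a9, Ly6g, Cd177 and Muc2 in the 9 libraries, numbered by replicate, with a line at the mean of each group. Bobcat339 replicate 1 lies near or among the DMSO libraries for S100a9, Ly6g, Cd177 and Muc2, and of the 5 genes only S100a8 lies above DMSO in all 3 4OI libraries.

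Calprotectin signals through TLR4 and its partners and binds CD36 and basigin (Bsg). Of 9 tested receptor and signalling genes 7 rose and 2 fell with 4OI against DMSO, and 2 rose and 0 fell with Bobcat339 (1 fell by DESeq2, 0 at an unadjusted p under 0.05). The shares over all tested genes were 33.3% higher and 30.4% lower with 4OI, and 11.6% and 9.06% with Bobcat339. Tlr4 was at 6.51 ± 1.35 CPM with DMSO, 8.10 ± 2.12 with Bobcat339 and 213 ± 12.9 with 4OI. Cd36, a fatty acid and lipoprotein scavenger receptor of macrophages and endothelium, had 1442, 1207 and 1971 counts, then 1209, 2281 and 2826, then 130588, 127836 and 146324. Bsg, which many cell types including hepatocytes carry, fell with 4OI from 1223 ± 136 to 335 ± 19.7 CPM (log2 fold change -1.87, SE 0.12, adjusted p = 1.21e-07). The rises of Ly96 (0.56, SE 0.15, adjusted p = 0.0228) and Myd88 (0.28, SE 0.07, adjusted p = 0.0239) with Bobcat339 were both lost without Bobcat339 replicate 2 (adjusted p = 0.0667 and 0.0877), and in other alternatives.

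Nearest to S100a8 in pattern were Jade2 (0.158), Kcnj8 (0.161), Lxn (0.169), Eva1c (0.174) and Arrb2 (0.180), and nearest to S100a9 were Cx3cl1 (0.227), Aldh1a3 (0.255), Bpgm (0.278), Slc12a8 (0.280) and Fam189a2 (0.287). The lists share no gene. S100a8 with DMSO and Bobcat339 (0.388 and 0.115 CPM) and S100a9 with Bobcat339 (0.278 CPM) lay under the offset of 0.5 CPM. Genes near them in this measure can therefore differ from them in fold change. Arrb2, an adaptor that desensitises G protein-coupled receptors, was at 24.7, 16.7 and 111 CPM in DMSO, Bobcat339 and 4OI libraries, and the chemokine gene Cx3cl1 at 1.23, 0.555 and 1.48 CPM.

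To compare the markers with one another, levels were divided by the length of a principal transcript. In the 4OI libraries Ptprc stood first at 34.8 CPM per kb, followed by S100a8 (7.57), Il7r (3.72), Csf3r (2.47), S100a9 (1.47), Cd79b (0.321), Cd79a (0.156) and Ms4a1 (0.0668). Ptprc, S100a8 and Il7r did not overlap with their neighbours, while Csf3r and S100a9 overlapped and so did the last 3 in turn. In the DMSO libraries Ptprc (1.74 CPM per kb) and S100a9 (1.61) overlapped at the top, then came S100a8 (0.798) and Csf3r (0.414) without overlap, and Cd79a, Cd79b, Ms4a1 and Il7r were at 0.0615 or less. In the Bobcat339 libraries each marker overlapped its neighbours, from Ptprc (0.758) and S100a9 (0.537) down to Csf3r (0.0268) and Ms4a1 (0). The place of S100a9 there rests on Bobcat339 replicate 1: without it S100a9 was at 0.146 CPM per kb, below Cd79a (0.170) and S100a8 (0.156) and overlapping both. By group mean Csf3r stood at place 4 with DMSO and with 4OI and at place 7 with Bobcat339, where its counts all came from replicate 2. Given the overlaps, its places with 4OI and Bobcat339 are not resolved.

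Over the 5 lists of T, NK, B, neutrophil and other granulocyte genes together, 112 genes were looked up, of which 25 had no counts in any library and 49 could be tested, 14 of them through the 4OI libraries alone. Of the 49, 27 rose and 8 fell with 4OI against DMSO (median 2.07), 3 rose and 10 fell with Bobcat339 against DMSO (median -0.77), and 31 rose and 5 fell with 4OI against Bobcat339 (median 2.98). Over all tested genes the shares higher and lower were 33.3% and 30.4%, 11.6% and 9.06%, and 30.9% and 31.3%, in the same order. The 14 genes tested through the 4OI libraries alone stay in the counts and medians of the 49, and no count was made without them. The 10 that fell with Bobcat339 were 14 without Bobcat339 replicate 1. The 8 that fell with 4OI were 5 without DMSO replicate 1, DMSO replicate 3 or 4OI replicate 3. The summed level was 92.6 to 101 CPM with DMSO, 63.9 to 69.2 with Bobcat339 and 1151 to 1213 with 4OI, beside 749 to 809, 345 to 382 and 7265 to 7429 CPM for the 16 macrophage genes.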

How the data were processed

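The authors deposited 1 table of estimated counts per gene (whole numbers, unscaled between libraries) for 56691 genes in 9 libraries. The submitters' processing notes list the tools CASAVA (version 1.8), HISAT2 (version 2.0.5) and featureCounts (version 1.5.0-p3), while genome build, annotation and strand setting were not given in the sources. Between 43.7% and 45.6% of values from 4 to 40 were multiples of 4 (27.0% if spread evenly), so 4 counts were read as 1 read pair and 12 counts (3 read pairs) as the floor. Most of these values were not multiples of 4, so numbers of read pairs are approximate. Floors cover counting error only. Symbols were attached by Ensembl identifier for 52073 genes (91.9%).

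edgeR 4.0.16 in R 4.3.3 was run as 1 quasi-likelihood fit over all 9 libraries (TMM, filterByExpr by group, two-sided), with Benjamini-Hochberg adjustment over 18379 genes in each of 3 comparisons. The 8 markers and all gene lists were chosen with earlier results of these data known. Named from each list were the 2 called genes with the smallest adjusted p in each direction or, with none called, the highest in CPM, plus 11 fixed markers. Others were named after their values were seen. Some genes that this rule names were left out of the text. Lengths are of principal transcripts (GENCODE M21). Alternatives were DESeq2 1.42.0, RLE or library size scaling, other filters, 6 libraries only, a replicate block, values divided by 4, and each library left out. The fit was tested on simulated data. Figures were drawn with matplotlib 3.10.9.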

Additional observations from a re-analysis of the deposited data

How the results depend on the processing

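For Bobcat339 against DMSO, 2136 genes were called higher and 1666 lower, with 1380 to 2370 higher and 1046 to 1860 lower when single libraries were left out and 2616 lower by DESeq2. The 5 lymphocyte and granulocyte lists gave 8 genes lower with 4OI against DMSO, which became 4 at 1 CPM or more in 3 libraries, 5 with values divided by 4 and 5 to 7 with single libraries left out. Their 5 genes lower with 4OI against Bobcat339 became 2, 3 and 3 under the filter at 1 CPM, with only the 6 libraries compared and with values divided by 4. The other counts over all genes and over these lists stayed within 1.5 times of the value given. Of 140 results for named genes, 14 lost their call and 6 gained one in at least 1 alternative, 9 of the 14 in Bobcat339 against DMSO, and none changed direction while called. With library size as the only scaling, the median of all genes in 4OI against Bobcat339 moved from -0.00 to 0.12 on the log2 scale. Deviations of same-numbered libraries had correlations from -0.0726 to 0.316, and in no comparison were all 3 over 0.1, so the numbers were not taken as pairs. With the replicate number as a block, 2336 genes were higher and 1744 lower for Bobcat339 against DMSO, 6143 and 5606 for 4OI against DMSO, and 5672 and 5722 for 4OI against Bobcat339. Depth limits Ms4a1, Cd79a, Cd79b and Bobcat339 values of Il7r, Csf3r and S100a8, each resting on under 15 read pairs in at least 1 group. It also limits S100a9 with Bobcat339, above all without replicate 1, which held about 13.25 of its 16.25 read pairs. The order of the markers without Bobcat339 replicate 1 was added after the data were seen.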

Other observations

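Lists of other cell types of the liver also held called genes. Of 8 tested dendritic cell genes all rose with 4OI against DMSO, among them Cd74, the invariant chain of MHC class II, from 9.53 ± 1.14 to 138 ± 9.23 CPM (log2 fold change 3.86, SE 0.13, edgeR adjusted p = 9.04e-10), and Zbtb46, a factor of conventional dendritic cells, from 4.48 ± 0.993 to 12.7 ± 1.02 CPM. With Bobcat339 Cd74 fell to 4.72 ± 0.606 CPM (-1.01, SE 0.12, adjusted p = 0.000261). All 12 endothelial genes rose with 4OI against DMSO, led by Tie1 (8.66 ± 0.429 to 264 CPM) and Cdh5 (37.8 ± 2.80 to 1247 ± 48.6 CPM), while with Bobcat339 4 fell, Kdr among them (to 9.60 ± 1.15 from 17.3 ± 1.15 CPM). Of 10 stellate cell and fibroblast genes 9 rose with 4OI, Dcn from 5.08 ± 1.09 to 138 ± 7.09 CPM and the pericyte gene Rgs5 from 1.86 ± 0.589 to 31.6 ± 0.311 CPM.

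Blood genes outside the leukocytes split. Alas2, which starts haem synthesis in red cell precursors, had 1013, 1080 and 838 counts with DMSO, 1460, 1374 and 1155 with Bobcat339, and 69, 98 and 68 with 4OI (log2 fold change -3.89 against DMSO, SE 0.22, adjusted p = 5.54e-08). Pf4, a platelet chemokine that mouse macrophages can also make, had 6, 9 and 6 counts, then 12, 8 and 0, then 772, 459 and 604 (6.16, SE 0.65). Ppbp, the other platelet chemokine gene listed, had 0, 0 and 4 counts, then 0 throughout, then 24, 56 and 36. Pf4 and Ppbp passed the filter on low counts through the 4OI libraries alone, so no p is given for them.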
